A study of Danio rerio with 12 samples.

Results

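The antioxidant, glutathione and cytochrome P450 genes of the zebrafish pineal gland were examined by circadian time and by enzyme class. Members were the probe sets whose single gene symbol in the platform's annotation names a glutathione S-transferase, glutathione peroxidase, peroxiredoxin, thioredoxin or relative, glutaredoxin, superoxide dismutase, catalase, glutathione reductase, glutamate-cysteine ligase subunit, NQO1, phytanoyl-CoA hydroxylase or relative, or a P450 of the families 1 to 4, 7, 8, 11, 17, 19 and 24 and of the other symbols that begin with the same digits; the cyp26 genes, cyp27c1 and cyp51 were outside the rule. This gave 108 probe sets of 84 genes, among 15502 probe sets on the array, which carried the single symbols of 8793 genes. The RNA came from adult Tg(aanat2:EGFP)Y8 fish, males and females aged 0.5 to 1.5 years, in which EGFP is expressed in the pineal gland from the regulatory regions of aanat2 so that the gland can be dissected by its fluorescence. All fish carried the transgene, had been raised under 12 h of light and 12 h of dark, and were moved to constant darkness for sampling. Every 4 h for 48 h, starting at circadian time (CT) 14, 12 glands were pooled and hybridized to 1 Affymetrix array, which gave 6 circadian times with 1 array from each of 2 daily cycles.

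These enzymes share the handling of reactive oxygen and of foreign or fatty compounds. Superoxide dismutases turn superoxide into hydrogen peroxide, which catalase, glutathione peroxidases and peroxiredoxins reduce to water, and the glutathione and thioredoxin systems return the electrons that the peroxidases spend. P450 enzymes insert oxygen into lipids, steroids, bile-acid precursors and xenobiotics, and glutathione S-transferases and NQO1 process the products; phytanoyl-CoA hydroxylase starts the breakdown of branched-chain fatty acids in peroxisomes. The pineal gland of fish is a photoreceptive organ with its own circadian clock, which makes melatonin at night.

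Values are quantile-normalized intensities, and a level of one probe set was never set against that of another. The 2 arrays of a circadian time are pools of different fish from different days, so that the SD of a time (n = 2 arrays) combines pool, day and hybridization. The p-values rest on the scatter of all 12 arrays around the fitted curve, which also holds departures from a cosine. Its variance was moderated over all probe sets. In whole glands, fewer cells of a type and less RNA per cell cannot be told apart. Markers of the tissue were measured: exorh, the pineal opsin, lay between 695 and 2203, crx between 1634 and 4313 and otx5 between 98.8 and 273. aanat2, the melatonin-rhythm enzyme, lay between 285 and 2658 with a fitted 24-h fold of 6.38 (adjusted p = 0.0259, limma). A skin keratin, krt5, was also present, at 136 to 9322, so that the glands were not free of other tissue by these markers. fabp10a and tfa, which mark liver, where many P450 genes are active, stayed below the filter on dim probe sets, fabp10a at 7.32 to 46.8. They are 2 genes of a liver list (9 of 14 genes measured) of which 4 probe sets passed that filter. Liver markers were thus not all below the filter. The summed intensity of the liver list was 224 to 604, a sum over 9 genes that does not show the level of any 1 gene. The array of CT6 in the second cycle stood apart, with the lowest mean correlation with the others (0.814, within a range of 0.770 to 0.941 for pairs of arrays). There the skin list (18 of 22 genes measured) lay 2.24 above its mean over the 12 arrays on the log2 scale, the list of bone and connective tissue (7 of 17) 2.34 and the immune list (12 of 16) 1.41, while the lists of pineal photoreceptors (11 of 17, at -0.70), glia (7 of 12, at -0.50) and erythrocytes (8 of 12) were at their lowest. The summed intensity of the skin list was 30920 on that array, against a median of 5975 over all arrays, and that of the erythrocyte list 3096 against 6461. The last 4 arrays of the second cycle (CT22, CT2, CT6 and CT10) had brighter hybridization controls, with geometric means of 837 to 1314 against 515 to 728 on the other 8.

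The 25% of probe sets with the dimmest maximum over the 12 arrays were removed, after which 72 of the 108 member probe sets, from 61 of the 84 genes, were tested among 11625 probe sets in all. Of the 36 that were not tested, 30 were P450 probe sets, of 58, and for 23 genes no probe set remained. Among those 23 genes were cyp17a1 and cyp19a1a of steroid synthesis, cyp24a1, which inactivates vitamin D, both cyp4v2 genes and several cyp2k, cyp2x and cyp2aa genes, as well as gstcd and txnipb. The array holds no detection calls, so that these probe sets were dim rather than shown to be silent.

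No member passed the test for a 24-h rhythm. The limma fit of a 24-h cosine called 60 of 11625 probe sets at an adjusted p of at most 0.05, which is 0.516%, and 0 of the 72 members; the lowest adjusted p of a member was 0.141. A Fourier list built after the study's method, here with 100 shuffles and at 90% true positives, held 56 probe sets (0.482%) and again 0 members. Its length depends on the setting: at 85% it held 147 probe sets, with txndc5 and cyp2p6 among them. That list ranks the g-factor, the share of a profile's power that lies at 24 h, and its lowest entry had 0.807, above the highest of the members, 0.793. At an unadjusted p under 0.05, 8 members were counted, or 11.1% of those tested, against 1177 probe sets or 10.1% of all those tested, so that the members' share lay close to the background. The median g-factor was 0.194 for the members and 0.191 over all probe sets, and the median fitted fold, peak over trough, was 1.37 and 1.40. In 17 of the 72 member probe sets (23.6%) the 2 cycles had their highest value at the same circadian time, against 18.5% of all probe sets tested.

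**Figure D1:**
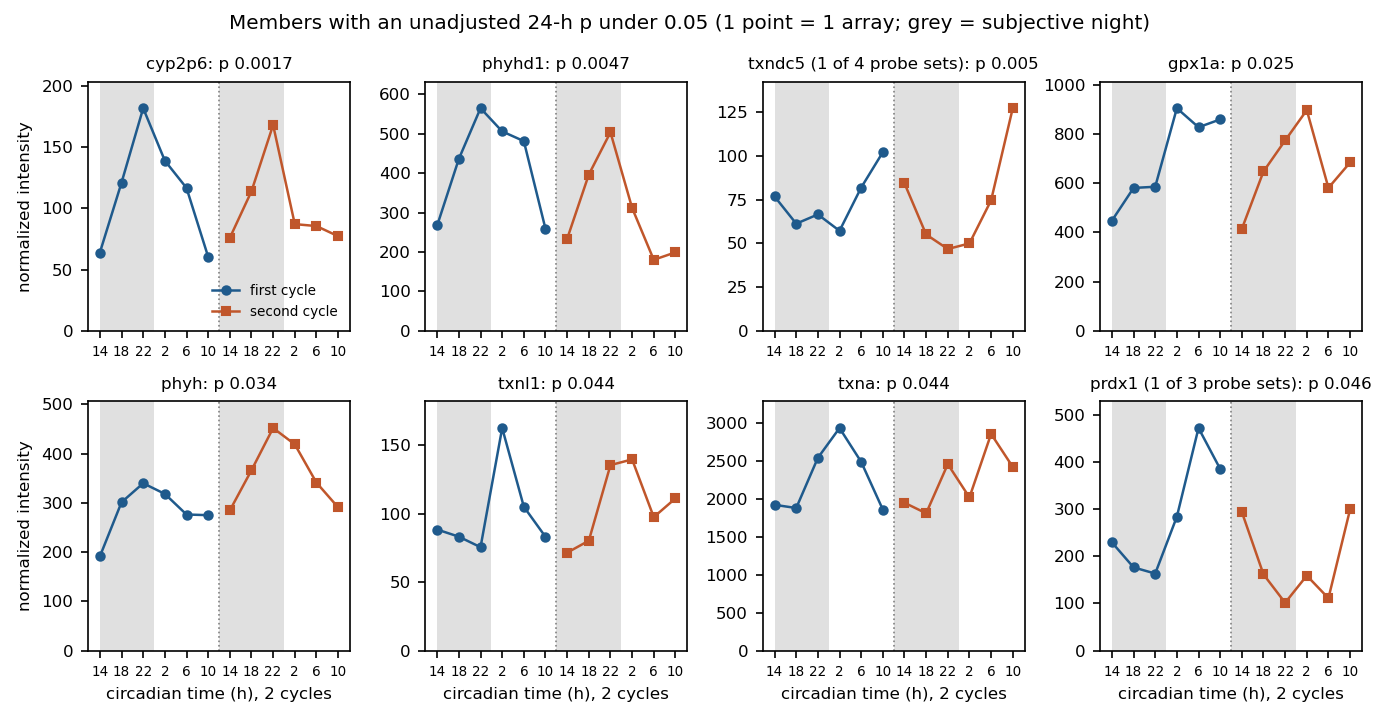
Normalized intensity of the 8 member probe sets with an unadjusted p under 0.05 in the 24-h fit, by circadian time in hours, for the first cycle (circles) and the second (squares); 1 point is 1 array and grey marks the subjective night. In cyp2p6, phyhd1 and phyh both cycles peaked at CT22, and in prdx1 the first cycle reached 472 at CT6 where the second had 111.

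The members with the lowest unadjusted p were cyp2p6 and phyhd1, both highest late in the subjective night, which runs from CT12 to CT24. Both are on the study's list from RNA-seq of other fish, as are cat, cyp11c1, gsto2 and txnl4a, whereas txndc5 is on its list from these arrays. cyp2p6, a P450 of family 2 found in fish, measured 64.0 at CT14, 121 at CT18, 182 at CT22, 139 at CT2, 117 at CT6 and 60.5 at CT10 in the first cycle, and, in the same order, 75.9, 114, 168, 87.2, 85.6 and 77.3 in the second. All series of 6 values run from CT14 to CT10. The value at CT22 was the highest of each cycle, with a mean of 175 ± 9.70 (SD, n = 2), against 68.9 ± 11.9 at CT10 and 69.9 ± 8.43 at CT14. The fit gave a fold of 2.34 (log2 1.23 ± 0.27 SE), peaking at CT22.8 ± 0.84 h (unadjusted p = 0.00172, adjusted p = 0.141, limma; g-factor 0.747). phyhd1, a relative of phytanoyl-CoA hydroxylase whose substrate is less well known, measured 268, 436, 565, 506, 481 and 259 in the first cycle and 233, 396, 504, 312, 180.1 and 199 in the second. It was 534 ± 43.2 (SD, n = 2) at CT22 and 229 ± 42.2 at CT10, and the arrays of CT18 and CT22 all exceeded those of CT10 and CT14. Its fitted fold of 2.32 (log2 1.22 ± 0.30 SE) peaked at CT22.3 ± 0.95 h (unadjusted p = 0.00467, adjusted p = 0.248; g-factor 0.609). At CT6 the cycles disagreed by 481 to 180.1, the latter on the array that stood apart, where the photoreceptor list was also low. A link between the low list and the low phyhd1 value was not tested. Without that array the fold of phyhd1 was 2.19 and the adjusted p 0.116. cyp2p6 hardly moved when that array was left out (fold 2.34, adjusted p 0.110). Without the last 4 arrays cyp2p6 passed the test, with a fold of 3.04 and an adjusted p of 0.0450, and so it did without the second array of CT2 (fold 2.71, adjusted p 0.0474), while phyhd1 reached 0.0518 in the former setting. Over all probe sets the former setting called 133 and the latter 43, against 60 with all arrays.

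phyh itself, the peroxisomal enzyme that hydroxylates phytanoyl-CoA, peaked near the same time. Its intensities were 191, 301, 339.9, 318, 276 and 275 from CT14 to CT10 in the first cycle and 285, 366, 452, 419, 341 and 291 in the second. Both cycles were highest at CT22 and lowest at CT14, and each value of the second cycle exceeded that of the first. In the fit phyh peaked 1.56-fold at CT23.9 ± 1.3 h (unadjusted p = 0.0343, adjusted p = 0.459), and with a linear trend over the 48 h removed its g-factor was 0.875, which placed it in the Fourier list. Of the 8 probe sets with an unadjusted p under 0.05, 3 had a fitted peak nearest to CT22 (cyp2p6, phyhd1 and phyh), 3 nearest to CT2 and 2 nearest to CT10. Over all 1177 such probe sets 19.5% lay nearest to CT22, 18.7% to CT2 and 17.8% to CT10.

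**Figure D2:**
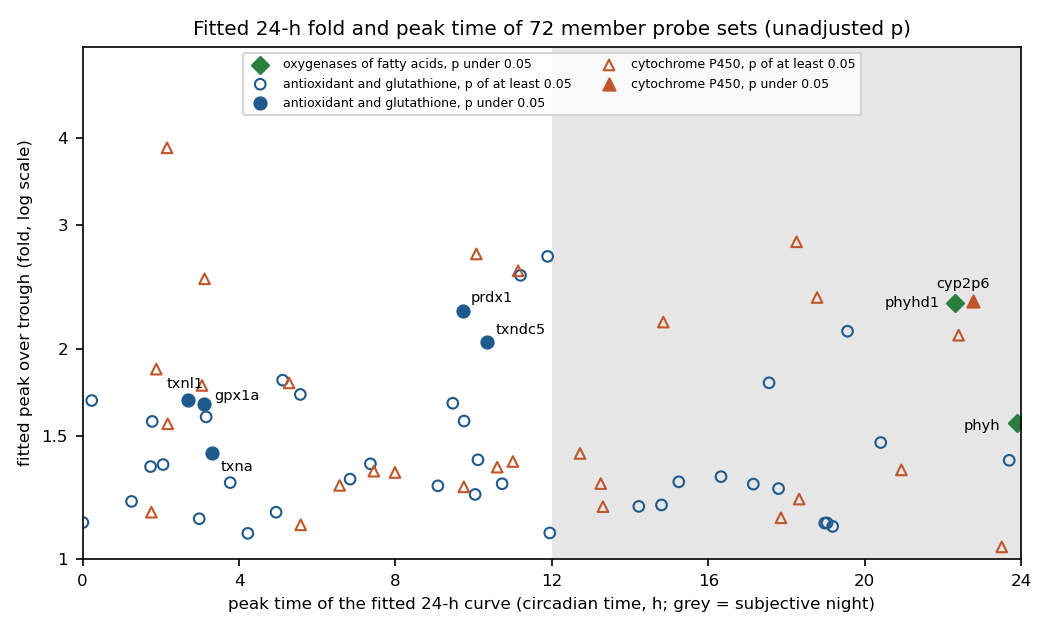
Fitted peak-over-trough fold (log axis) against the fitted peak time in circadian hours for the 72 tested member probe sets, coloured by group; filled symbols have an unadjusted p under 0.05 and grey marks the subjective night. The folds ran from 1.04 to 3.87, and the largest belonged to a P450 probe set, cyp2k6, with a p above 0.05.

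For catalase and the superoxide dismutases the 24-h fit was weak, with no adjusted p under 0.702. cat had intensities from 186 to 406, a g-factor of 0.145, a fitted fold of 1.30 and an unadjusted p of 0.446. Its first cycle ran from 186 at CT18 to 406 at CT10, whereas the second had 404 at CT18 and 406 at CT2. sod1, the cytosolic copper-zinc enzyme, varied from 601 to 1049.8 with a fold of 1.24 (adjusted p = 0.702), and sod2, the mitochondrial manganese enzyme, from 404 to 685 with a fold of 1.11. The lowest value of sod2 was that of the array that stood apart.

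Among the 5 glutathione peroxidases, 4 had fitted peaks nearest to CT2, as had 18 of the 72 members and 2109 of all 11625 probe sets tested. Only gpx1a had an unadjusted p under 0.05 in the 24-h fit. The median g-factor of the class was 0.058, and the peak time of so flat a fit is poorly determined. gpx1a, a selenoenzyme that reduces hydrogen peroxide, measured 448, 581, 585, 905, 827 and 859 in the first cycle and 414, 648, 774, 897, 581 and 684 in the second. Both cycles were highest at CT2, with a mean of 901 ± 5.52 (SD, n = 2), and lowest at CT14, with 431 ± 23.8. The fitted peak, 1.67-fold, lay at CT3.1 ± 1.2 h (unadjusted p = 0.0254, adjusted p = 0.421). Its paralog gpx1b peaked 1.60-fold at CT3.2 (unadjusted p = 0.171), and gpx4b, of the class that reduces lipid hydroperoxides, 1.14-fold at CT3.0 (unadjusted p = 0.741). Both fits moved without the array that stood apart: the unadjusted p was 0.0295 for gpx1b with a fold of 1.90 and 0.0152 for gpx4b with a fold of 1.40, the adjusted p being 0.332 and 0.271. gpx4a had a fold of 1.19 and gpx8, of the endoplasmic reticulum, one of 1.21.

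The peroxiredoxins were led by prdx1, a cytosolic peroxidase of hydrogen peroxide, whose 3 probe sets did not agree. The first had 229, 176, 163, 284, 472 and 385 from CT14 to CT10 in the first cycle and 294, 162, 101, 159, 111 and 299 in the second, and the fit peaked 2.26-fold at CT9.7 ± 1.4 h (unadjusted p = 0.0459, adjusted p = 0.490). The second peaked 2.55-fold at CT11.2 (unadjusted p = 0.232), and the third had a fold of 1.13 (unadjusted p = 0.908). In the first 2 probe sets both cycles were lowest at CT22. Without the last 4 arrays these 2 passed the test, with folds of 3.05 and 4.18 and an adjusted p of 0.0220 each. Both read the same gene, and that setting drops the CT6 array on which the first probe set had 111. It keeps a single array at each of CT22, CT2, CT6 and CT10, and it called 133 probe sets in all, against 60 with all arrays. The mean of CT6 was 291 ± 255 (SD, n = 2) for the first probe set, the widest spread of its 6 times. prdx2, prdx4 and prdx5 had folds between 1.27 and 1.37 with peaks from CT3.8 to CT9.1, and prdx3, the mitochondrial form, 1.36 (unadjusted p = 0.245).

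Among the thioredoxins and their relatives 3 of 13 tested probe sets (23.1%) had an unadjusted p under 0.05, against 10.1% of all probe sets tested. This class was collected by gene symbol and also holds txnipa and txnrd3. txndc5, a disulfide isomerase of the endoplasmic reticulum, was read by 6 probe sets of which 4 were tested. One gave the highest g-factor of all members, 0.793, with 76.8, 61.2, 66.5, 57.1, 81.9 and 102 in the first cycle and 84.3, 55.0, 46.7, 49.9, 74.6 and 127 in the second. It was 115 ± 17.8 (SD, n = 2) at CT10 and 53.5 ± 5.11 at CT2, and the fitted 2.04-fold peak lay at CT10.3 ± 0.96 h (unadjusted p = 0.00503, adjusted p = 0.253). The other 3 had folds of 1.13, 1.39 and 2.12 with unadjusted p-values from 0.319 to 0.905. Thioredoxin itself, txna, ran from 1813 to 2938, peaking 1.42-fold at CT3.3 (unadjusted p = 0.0443), and txnl1, a thioredoxin-like protein of the proteasome, from 71.5 to 163, peaking 1.69-fold at CT2.7 (unadjusted p = 0.0443). Both had an adjusted p of 0.488. txnl4b had a fold of 1.72 (unadjusted p = 0.0855). txnl4a, which carries a thioredoxin fold but serves in the spliceosome, had a fold of 1.13 (unadjusted p = 0.757).

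Among the genes of glutathione supply, the glutaredoxins and the glutathione S-transferases no probe set had an unadjusted p under 0.05. gclc and gclm, the catalytic and modifier subunits of the ligase that sets glutathione synthesis, had folds of 1.38 and 1.47 and peaked at CT23.7 and CT20.4 (unadjusted p = 0.112 and 0.289), and gsr, which regenerates reduced glutathione, had a fold of 1.31 (unadjusted p = 0.521). The glutaredoxins, which reduce mixed disulfides with glutathione or handle iron-sulfur clusters, had folds of 1.58 for glrx, 1.37 for glrx5 and 1.26 for glrx3, with unadjusted p-values of 0.0711, 0.167 and 0.551. Of the 7 glutathione S-transferases tested, gstp1.2, of the pi class, came closest with values from 889 to 3403, peaking 1.80-fold at CT5.1 (unadjusted p = 0.0756). gsto2, an omega-class enzyme, ran from 58.9 to 353 with a fold of 1.69 (unadjusted p = 0.271), both ends lying in the second cycle, at CT10 and CT6. gstm.1 and gstt1a had folds of 1.29 and 1.79 with unadjusted p-values of 0.375 and 0.426.

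Of the 28 P450 probe sets tested, cyp2p6 was the only one with an unadjusted p under 0.05 (3.57%, against 10.1% of all probe sets tested). cyp1d1, a member of the family that oxidizes aromatic hydrocarbons, followed with values from 66.1 to 219, peaking 1.87-fold at CT1.9 (unadjusted p = 0.0547, adjusted p = 0.500). cyp2p10, the other gene of its subfamily that was tested, peaked at CT12.7 in the fit, with a fold of 1.42 (unadjusted p = 0.129), and the tested cyp2ad2 probe sets had folds of 1.56 and 2.09 (unadjusted p = 0.129 and 0.362). cyp20a1, a P450 of unknown substrate, had a fold of 1.34 (unadjusted p = 0.170). Among the enzymes of sterols, bile acids and steroids the lowest unadjusted p was that of cyp11c1. cyp11c1, the steroid hydroxylase of cortisol synthesis, reached only 70.5 at most and peaked 2.84-fold at CT18.3 in the fit (unadjusted p = 0.148). Both cycles of cyp11c1 were highest at CT18, with 60.2 and 70.5, and its lowest value, 10.8, was on the array that stood apart. cyp7a1b, related to the first enzyme of bile-acid synthesis, had folds of 2.18 and 2.37 in its probe sets (unadjusted p = 0.253 and 0.259), and cyp8b1.3, a sterol hydroxylase of the same pathway, had 2.73 (unadjusted p = 0.236) with 246 and 323 at CT14 and CT6 of the first cycle and 152 at CT14 of the second. cyp27a1.4, of the family that oxidizes sterol side chains, had folds of 1.77 and 2.58 (unadjusted p = 0.494 and 0.278).

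**Figure D3:**
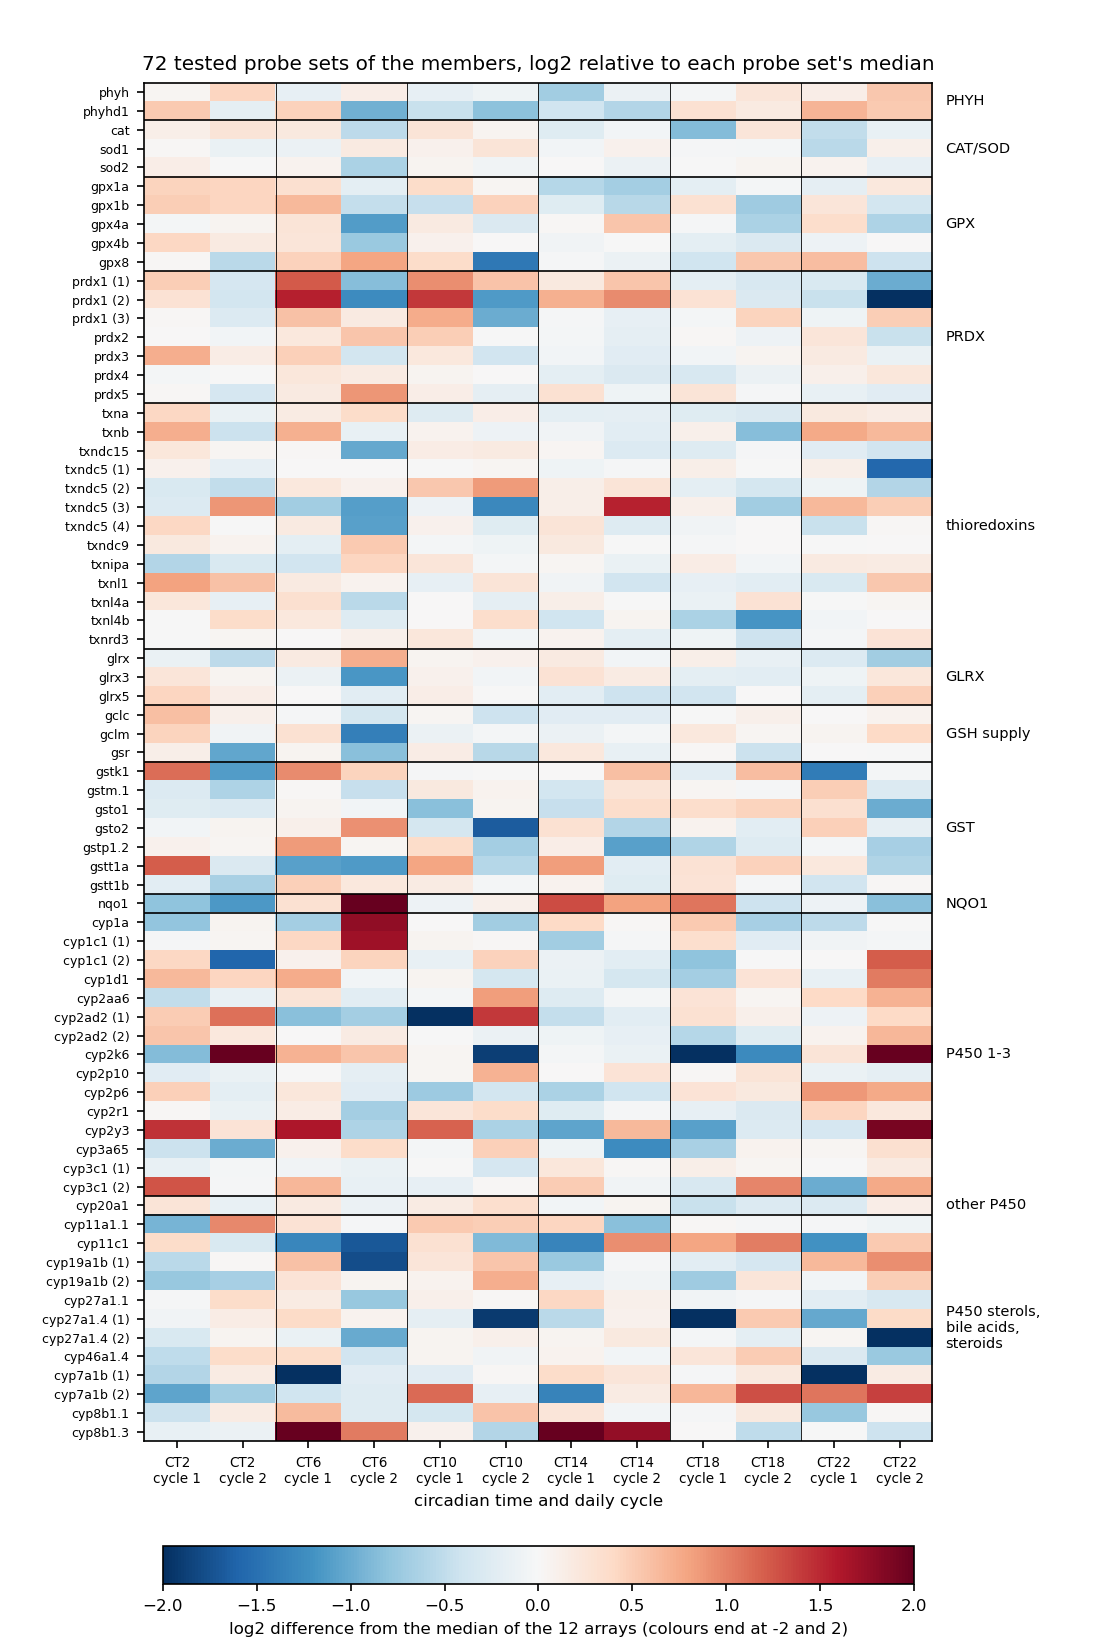
The 72 tested member probe sets (rows, by enzyme class) on the 12 arrays (columns, by circadian time with both cycles side by side), as log2 difference from each probe set's median, red above and blue below. The column of CT6 in cycle 2 holds both the highest values of nqo1, cyp1a and the first cyp1c1 probe set and the lowest gclm, glrx3 and gpx4a values.

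The array of CT6 in the second cycle held the highest value of 10 member probe sets and the lowest of 14 of the 72, or 13.9% and 19.4%, against 15.6% and 20.0% of all probe sets tested. The genes of this paragraph that are named nowhere else were chosen after their values were seen. nqo1, a quinone reductase that answers to oxidative stress, was 641 there, against a median of 146 on the other 11 arrays. Its next values were 385 and 327 at CT14 and CT18 of the first cycle and 272 at CT14 of the second, and its lowest was 70.8 at CT2 of the second. The skin list was also above its mean on those arrays, by 1.11, 1.24 and 0.08, and lowest (-1.33, -1.08) at CT18 and CT2 of the second cycle, where nqo1 had 118 and 70.8. At CT10 of the second cycle it was -0.87, where nqo1 had 167, and at CT6 of the first 0.25, where nqo1 had 193. The list of bone and connective tissue was 0.40, -0.25 and -0.09 on the arrays of those 3 next values of nqo1. It was 1.18 at CT10 of the first cycle, where nqo1 had 146. cyp1a, the classic target of the aryl hydrocarbon receptor, was 329 on the array of CT6 in the second cycle against 55.9 to 139 elsewhere, and one cyp1c1 probe set 244 against 46.5 to 100.1. The other tested cyp1c1 probe set was not highest there, with 120 against 29.5 to 204 elsewhere. prdx5, prdx2, glrx, gsto2, gpx8, txnipa and txndc9 were highest there, prdx5 at 4002 against at most 2692 on any other array. gclm was 190.4 there against 452 to 664 elsewhere, glrx3 286 against 551 to 777, and gpx4a 147 against 206 to 474. The part of skin or connective tissue in these values was not tested. With all 12 arrays the 24-h fit of nqo1 had a fold of 2.71 and a peak nearest to CT10 (adjusted p = 0.559, limma; g-factor 0.306). Without the CT6 array of the second cycle nqo1 peaked 3.12-fold at CT13.9 in the fit (unadjusted p = 0.00478, adjusted p = 0.168). That unadjusted p was the lowest of 20 settings, of which 2 were under 0.05. In the same setting the folds of cyp1a and of one cyp1c1 probe set were 1.56 and 1.27.

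**Figure D4:**
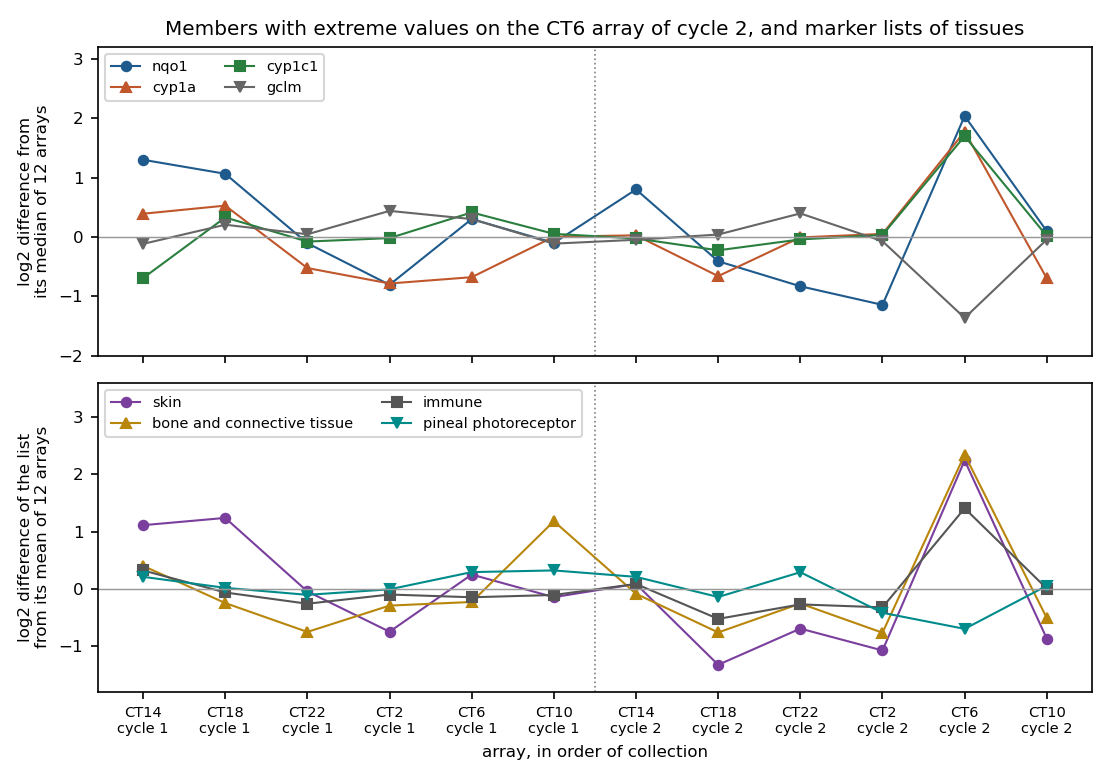
Top, log2 difference of nqo1, cyp1a, one cyp1c1 probe set and gclm from their medians over the 12 arrays, and bottom, mean log2 difference of the marker lists of skin, bone and connective tissue, immune cells and pineal photoreceptors from their own means, with arrays in order of collection. On the CT6 array of cycle 2 the first 3 genes and the first 3 lists were highest and gclm and the photoreceptor list lowest.

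The second day of darkness was compared with the first in a fit with the 24-h terms. No probe set differed at an adjusted p of at most 0.05, 0 of 11625 (0.0%) and 0 of 72 members, where the lowest adjusted p was 0.643. At an unadjusted p under 0.05 the limma fit had 9 members (12.5%) against 829 probe sets (7.13%) of all tested. Of the 9, 7 were lower in the second cycle, where the background was 480 probe sets (4.13%), and 2 were higher, against 349 (3.0%). Cycle cannot be told apart here from the day of collection, the fish sampled or the order of the arrays.

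The 7 lower probe sets were those of gsr, gstp1.2, phyhd1, prdx3 and txnb and a pair of prdx1. The means of a cycle given here are geometric means of its 6 arrays, unlike the means with an SD above. prdx1 was lower by 1.33 ± 0.40 (SE) on the log2 scale in one probe set, with mean intensities of 178 and 70.9 in the first and second cycle (unadjusted p = 0.00579), and by 0.62 ± 0.26 in another, with 264 and 171 (unadjusted p = 0.0305); the third had -0.25 (unadjusted p = 0.386). gsr measured 144, 127, 125, 135, 129.9 and 138 in the first cycle and 112, 92.7, 125, 60.7, 70.1 and 85.1 in the second. It was lower at all 6 times, though hardly at CT22, with a difference of -0.59 ± 0.18 (SE) and means of 133 and 88.2 (unadjusted p = 0.00636, adjusted p = 0.643). gstp1.2 was lower by 0.57 (means of 2070 and 1399, unadjusted p = 0.0115), prdx3 by 0.40 (924 and 701, unadjusted p = 0.0159) and txnb, the second thioredoxin gene, by 0.56 (580 and 392, unadjusted p = 0.0197). phyhd1 was lower at all 6 times with a difference of -0.50 (means of 401 and 284, unadjusted p = 0.0119), whereas phyh was higher at all 6 by 0.34 (279 and 354, unadjusted p = 0.0189). cyp7a1b was higher by 0.92 in one probe set (37.9 and 71.5, unadjusted p = 0.0390) and by 0.27 in the other. Lower at all 6 times were 3 members (gsr, phyhd1 and txnb) against 2.49% of all probe sets, and higher at all 6 times was phyh, against 1.72%.

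**Figure D5:**
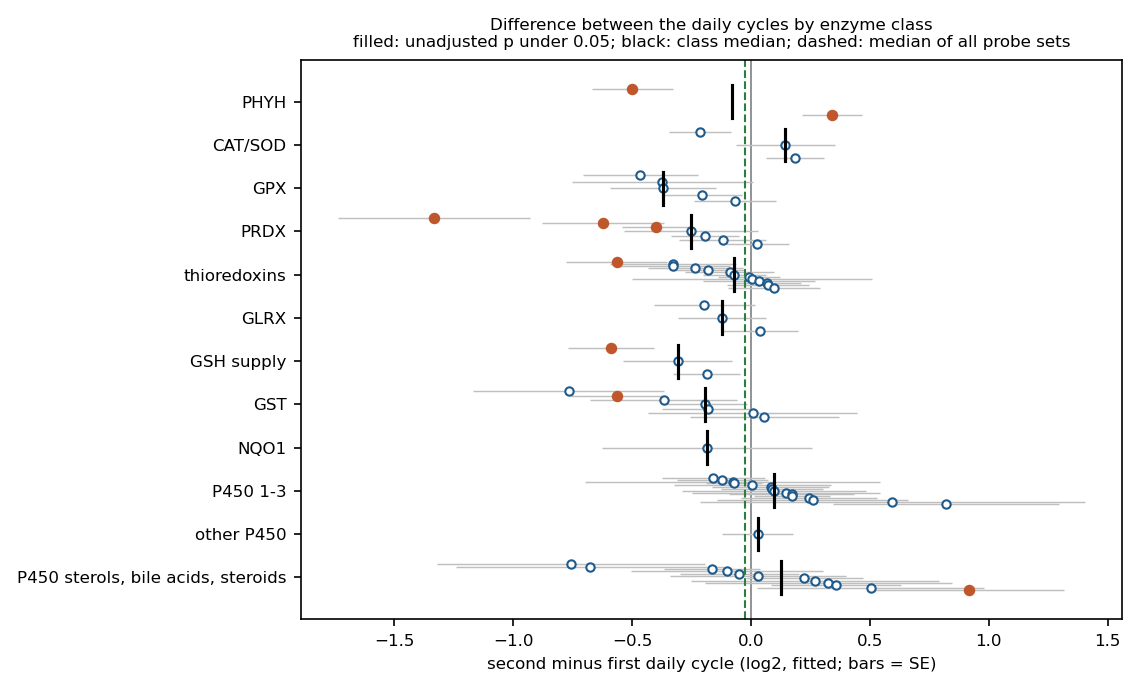
Fitted difference between the second and the first daily cycle (log2, bars are SE) for each tested member probe set by enzyme class, filled where the unadjusted p was under 0.05; black marks are class medians and the dashed line the median of all probe sets, -0.03. All 5 glutathione peroxidases and all 3 genes of glutathione supply lay below 0, and 11 of 15 probe sets of P450 families 1 to 3 above it.

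By class, of 42 antioxidant and glutathione probe sets 31 were lower in the second cycle (73.8%), with a median difference of -0.19, against 53.7% and -0.03 over all probe sets tested. The count was 5 of 5 for the glutathione peroxidases (median -0.37), 3 of 3 for gclc, gclm and gsr (-0.31) and 6 of 7 for the peroxiredoxins (-0.25). It was 5 of 7 for the glutathione S-transferases (-0.19), 8 of 13 for the thioredoxins and their relatives (-0.07) and 2 of 3 for the glutaredoxins (-0.12). For catalase and the superoxide dismutases it was 1 of 3, with a median on the other side of 0 (0.14). That median was 0.002 with median centring and -0.11 at the 4 times other than CT14 and CT18. Of 28 P450 probe sets, in contrast, 9 were lower and 19 higher, with a median of 0.09. These counts were not tested, and members of a class share arrays. The groups also differed in signal level. Of 58 P450 probe sets 28 passed the filter on dim probe sets, and of 48 antioxidant and glutathione probe sets 42. With that filter set at 50%, 32 of the 46 members left were lower (69.6%), against 41 of 72 (56.9%) with the filter used here. The part of signal level in the split by class was not tested. With the deposited values left unnormalized, where all probe sets were on the other side of 0 (46.3% lower, median 0.03), the antioxidant count was again 31 of 42 and the P450 count 7 of 28. With median centring, which moved the median of all probe sets to -0.10 (63.9% lower), they were 35 and 11. Without CT6, with quantile normalization, they were 32 and 8, where 51.9% of all probe sets were lower. At CT14 and CT18, whose arrays are not among the last 4, the antioxidant count was 28 of 42 with a median of only -0.04, where 47.3% of all probe sets were lower. With median centring it was 19 of 42 (45.2%), close to the 44.6% of all probe sets. By class, at CT14 and CT18, 3 of 5 glutathione peroxidases were lower, 2 of 3 of gclc, gclm and gsr, and 4 of 7 peroxiredoxins. With median centring these were 1 of 5, 1 of 3 and 3 of 7. At the 4 other times the antioxidant count was 33 of 42 with a median of -0.26, where 54.3% of all probe sets were lower. The P450 count at CT14 and CT18 was 9 of 28 with a median of 0.08. It was 9 of 28 with median centring and 11 of 28 unnormalized, where 44.6% and 49.6% of all probe sets were lower. At the 4 other times the P450 count was 15 of 28 with a median of -0.03, on the other side of 0. That side depended on the scaling: the P450 median at those 4 times was -0.04 with median centring, but 0.17 on the unnormalized values. There 9 of 28 were lower, where 44.5% of all probe sets were. The share that the brightness of the last 4 arrays had in this split was not tested.

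The related genes outside the rule, which regulate these enzymes, supply NADPH or electrons, or act beside them, gave 75 tested probe sets of 70 genes. None passed the 24-h test (lowest adjusted p = 0.319), and 6 (8.0%) had an unadjusted p under 0.05, below the 10.1% of all probe sets. These were fthl28, a ferritin subunit (fold 2.03, peak at CT22.6), mat1a, which makes S-adenosylmethionine (2.61, CT17.5), romo1, a mitochondrial modulator of reactive oxygen (1.71, CT4.5), msrb1b, a methionine sulfoxide reductase (1.83, CT19.8), oxsr1b, a stress-responsive kinase (1.85, CT0.86), and sesn3, a sestrin (1.51, CT20.3). The 11 probe sets of regulators covered 10 of the 28 genes on that list, among them nfe2l2a, ahr1a and ahr2 but not nfe2l2b or ahr1b. They had a median fold of 1.28 and none with an unadjusted p under 0.05. In the comparison of cycles 59 of the 75 (78.7%) were lower in the second, with a median of -0.18, against 53.7% of all probe sets. An unadjusted p under 0.05 was found for 11, all 11 lower, where 4.13% of all probe sets were lower and 3.0% higher at that p. By list these were 14 of 16 lower for glutathione, 10 of 11 for NADPH supply, 5 of 5 for the electron donors of P450, 8 of 9 for phase II enzymes, 16 of 23 for peroxide and oxidant defence and 6 of 11 for the regulators. At CT14 and CT18 alone 50 of the 75 were lower, with a median of -0.09, against 47.3% of all probe sets. No probe set of these lists passed the test between cycles (lowest adjusted p = 0.635).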

How the data were processed

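RNA of 12 pools of pineal glands was labelled in a procedure of 2 cycles primed by oligo(dT), which favours the 3′ ends of transcripts, and hybridized to 12 Affymetrix zebrafish arrays. The authors deposited 1 signal intensity per probe set and array on a linear scale; the submitters' processing notes name GCOS and MAS5, with no version, and no detection calls were used here. Deposited intensities were put on the log2 scale and quantile-normalized (limma 3.58.1, R 4.3.3; tables with Python 3.11.15, numpy 2.4.6 and pandas 2.3.3), so that log2 differences depend on that step. Array medians before it were 71.0 to 95.4, and the number of arrays limits the precision.

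The 25% of probe sets with the dimmest maximum over the arrays were left out. Of 15502 probe sets, 10795 had 1 symbol, 135 several and 4572 none in the platform annotation; all 108 member symbols matched RefSeq by gene ID. Rhythm was tested over all 11625 probe sets with cosine and sine terms of 24 h (limma with a variance trend, Benjamini-Hochberg adjustment) and ranked by the Fourier g-factor with 100 shuffles a probe set. A further term gave the difference of the second daily cycle from the first. Scripts were tested on simulated data. Alternatives covered normalization, filter, offset, model, thresholds, each array left out, the last 4 arrays left out and the daily cycle as a block; subsets of times in the cycle comparison were added after seeing the data.

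Members and lists were chosen with earlier results of these data known. Named are members called in any test, phyhd1 and cyp2p6, members the study lists, and in each class up to 4 probe sets with the lowest p for 24 h and up to 2 for cycle. Of the related genes, up to 6 with the lowest p for 24 h are named. cyp2p7, cyp2ad3, cyp2ad6, txndc17 and cyp4t8 were not analysed here.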

Additional observations from a re-analysis of the deposited data

How the results depend on the processing

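Of the reported values, one cyp7a1b probe set turned from 0.27 to -0.12 between cycles without the first array of CT14, and the median of all probe sets between cycles turned from -0.03 to 0.03 without further normalization. The antioxidant median at CT14 and CT18 turned from -0.04 to 0.006 with median centring. At the 4 other times the P450 median turned from -0.03 to 0.17 without further normalization. The number of members called in the 24-h test was 0 in 11 of 12 other settings and 3 without the last 4 arrays (prdx1 in 2 probe sets and cyp2p6; 133 probe sets in all against 60). It ranged from 0 to 1 when single arrays were left out, the call being cyp2p6 without the second array of CT2, while the count over all probe sets ran from 14 without the first array of CT10 to 103 without the second array of CT6. It was 29 over all probe sets with median centring, 27 with a linear trend removed, 17 without the variance trend, 12 with circadian time as a factor and 103 at a false discovery rate of 0.1, with 0 members in each. The 8 members with an unadjusted p under 0.05 became 4 with median centring, 4 with circadian time as a factor and 16 without the last 4 arrays. Over all probe sets the 1177 became 1163, 622 and 1785 in the same settings. When single arrays were left out the members numbered 4 to 12, over 879 to 1472 probe sets in all. The count was 4 without the second array of CT14 and 12 without the second of CT6. It was 5 without the first array of CT14, CT2 or CT10 or the second of CT22 or CT2. The Fourier list held 2 members at a true-positive rate of 85% (txndc5 and cyp2p6, among 147 probe sets), 1 with a linear trend removed (phyh), and 0 to 1 when single arrays were left out (txndc5 without the first array of CT22, cyp2p6 without the second of CT2), over totals of 8 to 121. Its totals were 20 with median centring, 110 with the filter at 50%, 33 without a filter, 11 without the last 4 arrays, 27 at a rate of 95%, 34 with the trend removed and 0 with power at 12 h and 8 h added, with phyh in the trend-removed list and no member in the others. Between the cycles no member was called in any setting, and 4 probe sets in all were called without the second array of CT22. The members with an unadjusted p under 0.05 there numbered 8 to 11 in other settings and 7 to 11 when single arrays were left out. Over all probe sets the 829 ran from 613 with the filter at 50% to 1167 with median centring. The 613 was counted over fewer probe sets tested, so that it does not show a lower share. When single arrays were left out the 829 ran from 539 to 1249. The cause of these shifts was not tested.

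Replicate numbers mark the daily cycle. Differences between cycles at one time correlated with those at another by -0.300 to 0.225, above 0.1 in 5 of 15 pairs of times, so that the number was not taken to pair the arrays. With the cycle as a replicate block the 24-h test called 0 members (53 probe sets in all), and the Fourier list held 0 of 46. At an unadjusted p under 0.05 that test had 7 members and 1223 probe sets in all. With circadian time pairing the 2 cycles as a block, 0 members differed between them. An unadjusted p under 0.05 was found there for 10 members and 744 probe sets in all.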
